A study of Mus musculus with 10 samples.

Results

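YTHDC1-bound RNA of mouse embryonic stem (ES) cells is described here from the list of peaks that the authors called in a pull-down of Halo-tagged YTHDC1. All 30992 peaks of that list were taken, of 50124 peaks in the 3 peak lists of the series. The other lists map N6-methyladenosine (m6A) and were not compared with it. The list rests on 1 sample titled YTHDC1-RIP (RNA immunoprecipitation, RIP), with 1 sample titled YTHDC1-RIP-INPUT beside it. Both came from male ES cells of the 129 strain with the genotype Halo-Ythdc1 knockin, grown without feeders in 15% fetal bovine serum and 1000 U/ml LIF, the cytokine that keeps ES cells from differentiating. Ythdc1 was therefore tagged in the input cells too, and the labels do not say whether the cells were 1 clone or a pool. The RNA was captured through the Halo tag, washed under denaturing conditions, neither digested nor fragmented during the capture, and freed from the protein with a protease. From 200 to 500 ng of RNA entered each total RNA library. A Halo-GFP pull-down is named in the protocol and was not analysed here. Each peak has a chromosome, a start and an end on mm10, and no height, read count, strand or replicate. The depth behind the peaks is unknown, no value could be set against a spread between replicates, and no test was made. Intervals are exact Clopper-Pearson 95% intervals which describe counting error within this list alone.

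YTHDC1 is the nuclear member of the YTH domain family, proteins that bind m6A in RNA. METTL3 and METTL14 form the core of the enzyme that writes m6A, with WTAP, VIRMA, ZC3H13, RBM15 and others as partners, and the preferred site holds the letters GGAC. YTHDC1 is known for roles in splicing, in export of RNA from the nucleus, in polyadenylation and, in ES cells, in the silencing of retrotransposons through chromatin. Its partners include SR proteins, a family of splicing factors stored in nuclear speckles. Nuclear RNA carries introns and non-coding transcripts that are rare in the cytoplasm, so gene spans with introns included are the unit used below.

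MicroRNA genes that are typical of ES cells were among the regions with peaks. The sequence table held 1005 hairpins, of which 41 (4.08%) were overlapped by a peak of 1 kb or less. The Mir290a cluster, the leading microRNA locus of ES cells, spans 2.216 kb (chr7:3218626-3220841). Of its 8 listed hairpins 4 were overlapped, by 3 peaks of 205 to 284 bp. Mir290b lies on the opposite strand within the stretch of Mir290a, and the same peak overlapped both. The peak at Mir291b covered 96.2% of the hairpin, and the peaks at Mir290a and Mir293 covered 67.5% and 51.2%. By the midpoint rule used below, these peaks count toward Nlrp12, a coding gene whose span contains the locus. The Mir17hg cluster, a growth-promoting microRNA locus, spans 0.836 kb (chr14:115043671-115044506) and held a single peak of 271 bp that covered all of Mir19a, 49.0% of Mir18 and 13.1% of Mir20a. Some mature microRNAs of the overlapped hairpins, chosen after their sequences were seen, are shown to identify the hairpins. The seed, bases 2 to 8, is in capitals. The peaks covered the 3′ part of Mir290a, Mir293 and Mir18 and the first 14 bases of Mir20a. An arm shown can therefore lie outside the peak, and arm positions were not compared with peaks. Other arms of the same hairpins are not shown. The sequences come from RefSeq on GRCm38.p6, the assembly behind mm10.
mmu-miR-290a-3p: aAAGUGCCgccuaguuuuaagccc
mmu-miR-291b-3p: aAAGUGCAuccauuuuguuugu
mmu-miR-290a-5p: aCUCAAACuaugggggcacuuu
mmu-miR-293-5p: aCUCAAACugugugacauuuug
mmu-miR-18a-5p: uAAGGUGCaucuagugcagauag
mmu-miR-19a-3p: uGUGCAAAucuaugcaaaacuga
mmu-miR-20a-5p: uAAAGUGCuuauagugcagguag
The seed CUCAAAC is shared by the 5p arms of Mir290a and Mir293. The 3p arms of Mir290a and Mir291b have seeds that differ in the last base alone, and the miR-20a-5p seed AAAGUGC contains their shared letters AAGUGC shifted by a base. The seeds of miR-18a-5p and miR-19a-3p match no other seed shown, and arms not shown, such as miR-293-3p with GUGCCGC, have further seeds. A peak covers genomic positions of a hairpin and does not say whether the precursor or the mature RNA was captured. Elsewhere, a peak of 200 bp contained the whole hairpin of Mirlet7i (chr10:122985640-122985724), whose 5p arm carries the let-7 seed.
mmu-let-7i-5p: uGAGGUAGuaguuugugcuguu

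Peaks around the starts of genes gave the other set of sequences. Of 32851 windows from 250 bases before to 50 bases after a RefSeq start, 1757 (5.35%) were overlapped by a peak of 1 kb or less, and 1504 peaks (5.77%, 5.49 to 6.06%) lay on such a window. Among the 1796 pairs of a peak and a window, the peak crossed the start in 637, lay wholly upstream in 588 and wholly downstream in 571. The letters GGACT, the form of the m6A site searched for here, stood on the gene's strand in 27.8% (25.7 to 29.9%) of overlapped windows and in 26.1% (25.7 to 26.6%) of all windows. With the opposite strand (AGTCC) counted too, the shares were 47.4% and 45.5%. The intervals of the overlapped and of all windows overlap on both counts. The motif was counted anywhere in a window, so it need not lie under the peak. The overlapped windows were richer in G and C, with a mean of 63.6% against 53.8%. Of the peaks that lay wholly inside a window, 56 at genes with an established name were searched, and 18 of these held GGACT on the gene's strand. The median G and C content of the 56 was 63.75%. No share was computed for other sequences of like width and content, so 18 of 56 has no background here. The stretch of 29 bases around GGACT, in capitals, is shown for the 3 widest of those 18 peaks with the midpoint in the same gene. Cnot8 encodes a subunit of the CCR4-NOT deadenylase (peak of 263 bp, stretch at chr11:58104084-58104112, plus strand). Dnajb1 encodes a heat shock co-chaperone (peak of 218 bp, stretch at chr8:83608328-83608356, plus strand). Mxi1 encodes an antagonist of MYC (peak of 204 bp, stretch at chr19:53329581-53329609, plus strand).
Cnot8: ctctgggcgccaGGACTcacgtctccctg
Dnajb1: ggccatgggcaaGGACTactatcagacgc
Mxi1: ggagtcgtcgtgGGACTgtagccgtctgt
In all 3 the motif lies upstream of the listed start, and a gene can have other starts. The match is a description of the letters and not evidence of a modified base.

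The list held narrow and very wide peaks. Peaks of 1 kb or less numbered 26084 (84.2%, 83.8 to 84.6%), with a median width of 200 bp and quartiles of 191 and 234 bp. Exactly 200 bp was the width of 7621 of them (29.2%), and 423 (1.62%) were wider than 500 bp. The 4908 wider peaks had a median of 5428 bp (quartiles 4385 and 6322 bp) and together covered 24.5 Mb, against 5.59 Mb under the narrow ones. The widest narrow peak was 998 bp and the narrowest wide one 1003 bp. Neighbouring peaks never overlapped. Gene spans held the midpoint of 21488 narrow peaks (82.4%, 81.9 to 82.8%) but of 1410 wide ones (28.7%, 27.5 to 30.02%). The account below is of the narrow peaks, and "peak" means these unless a wide peak is named.

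**Figure D1:**
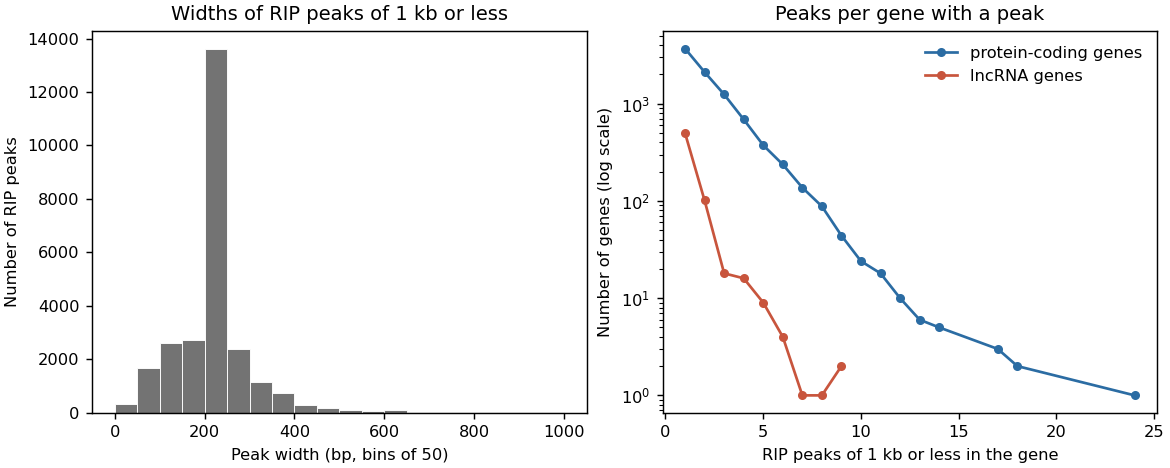
Left, number of YTHDC1 RIP peaks of 1 kb or less (y) by width in bins of 50 bp (x); right, number of genes on a log scale (y) by number of such peaks in the gene span (x), for protein-coding and long non-coding RNA (lncRNA) genes. The tallest width bin starts at 200 bp, and protein-coding genes reach 24 peaks while lncRNA genes reach 9.

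Peaks lay in 9331 of 34610 genes (27.0%). Protein-coding genes had a peak in 8681 of 21883 cases (39.7%, 39.0 to 40.3%) and lncRNA genes in 650 of 12727 (5.11%, 4.73 to 5.50%). Of the peaks in genes, 920 lay in lncRNA genes (4.28%, 4.01 to 4.56%) and 20568 in coding genes. A midpoint in overlapping spans was given to the coding gene. With no such preference, 6.71% of the genic peaks fell to lncRNA genes. Counting midpoints that also lie in a coding span, 1106 lncRNA spans (8.69%, 8.21 to 9.19%) held a peak. Over all gene spans the density was 1.96 peaks per 100 kb in coding and 0.404 per 100 kb in lncRNA genes, a ratio of 4.85. The ratio was 3.02 with the shortest span first and 2.73 with every gene overlapped counted. Among genes with a peak alone the order turned, with 3.64 per 100 kb in coding and 3.85 per 100 kb in lncRNA genes. A gene enters the latter comparison by having a peak, and lncRNA genes with a peak were shorter (median span 14.5 kb against 28.2 kb). The files give no RNA level per gene, and how far expression bears on which genes have a peak was not tested.

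Genes with a peak had a median of 2 peaks (quartiles 1 and 3) and a mean of 2.30. A single peak was found in 4184 genes (44.8%), 2214 had 2, and 2933 had 3 or more (8.47% of all genes). The 966 genes with at least 5 peaks (2.79% of all genes) held 29.2% of the peaks in genes, and all 69 genes with 10 or more were protein-coding. Most lncRNA genes with a peak, 498 of 650 (76.6%), had a single one, and 17 had 5 or more. Peaks in the same gene were usually kilobases apart. The median gap over 12139 neighbouring pairs was 5336 bp (quartiles 1408.5 and 15202.5 bp), with 20.4% of pairs under 1 kb and 6.96% under 200 bp apart. A wide peak had its midpoint in 1067 genes, of which 609 held no narrow peak.

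Longer coding genes had a peak more often, up to a plateau. The share was 3.30% below 1 kb of span, 14.9% from 1 to 3 kb, 28.9% from 3 to 10 kb and 45.0% from 10 to 30 kb. It then stayed at 54.9% from 30 to 100 kb, 56.0% from 100 to 300 kb and 54.9% from 300 kb on, and these last intervals overlap. The number of peaks did not keep pace with the span, since the density fell from 10.98 peaks per 100 kb in coding genes of 1 to 3 kb to 0.307 per 100 kb in those of 300 kb or more. For lncRNA genes the share rose from 2.36% below 1 kb to 8.07% at 30 to 100 kb, 15.7% at 100 to 300 kb and 12 of 27 genes (44.4%, 25.5 to 64.7%) at 300 kb or more. Across all genes the rank correlation of peak number with span was 0.346. It was 0.341 in coding and 0.0968 in lncRNA genes. Genes share a single library here, so these correlations are descriptions. In every class of 1 kb or more the coding share lay above the lncRNA share, with intervals that overlap only in the longest class.

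**Figure D2:**
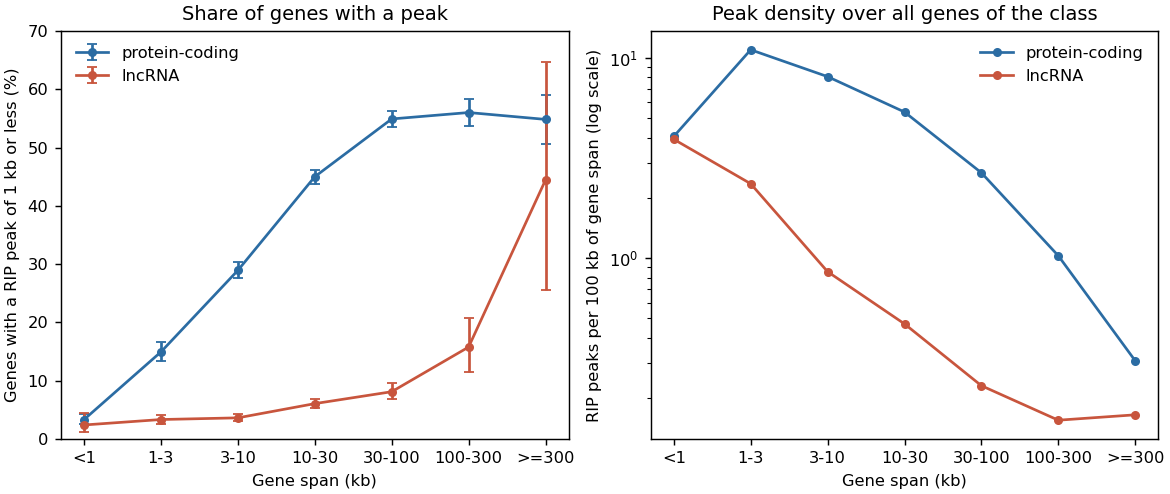
Left, share of genes with a YTHDC1 RIP peak of 1 kb or less in percent (y, with exact 95% binomial intervals) by class of gene span in kb (x); right, peaks per 100 kb of span over all genes of the class on a log scale. Coding genes level off near 55% from 30 kb on while their density falls, and lncRNA genes stay lower in share in every class.

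The gene with the most peaks was Macf1, which encodes a giant linker of microtubules and actin. Its 24 peaks, from 76 to 306 bp wide, were spread over 338 kb of chromosome 4 (123349633 to 123687802), all in a stretch with no other gene model. Hells, a remodeller needed for DNA methylation of repeats, had 17 peaks in 40.2 kb (chromosome 19, 38930262 to 38970470), and with the span cut into 10 equal bins 3 of them lay in the first and 3 in the last. Rad51b, a recombination factor, and Ranbp17, a nuclear transport receptor, had 17 each in 551 and 302 kb. Rif1, a regulator of replication timing and telomeres, the topoisomerase gene Top2a, the channel kinase gene Trpm7, the exocyst gene Exoc4 and Auts2, a Polycomb partner, had 14 each. Their spans ran from 31.3 kb for Top2a to 1106 kb for Auts2, so the same count stood for 0.448 peaks per kb in the first and 0.0127 per kb in the second. The cell cycle factor Mybl2, the splicing factor Luc7l2, the remodeller Chd2, Sash1, Hspbap1 and the dynein gene Dnah8 had 13 each. The 12 peaks of Atad2, of the splicing factor Rbm25 and of the deubiquitinase Usp28 closed the leading 20, where 10 genes tied at 12 and the shorter ones were taken. The leading 20 were all protein-coding and held 295 peaks (1.37% of those in genes). Of these 20, 2 remained in the leading 20 when only peaks above the median width were counted.

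For 16 of the 20 every peak lay in the span of that gene alone. Tex14 on chromosome 11 reached 18, but 8 of them also lay in models inside its span, among them the U1 gene Rnu1a1 and the U3 genes Rnu3b1 to Rnu3b4. Zfp993, in a zinc finger cluster on chromosome 4, reached 18 with 15 shared with overlapping models. These counts cannot be given to Tex14 or Zfp993 alone, and reads in clustered zinc finger genes can be shared between near-identical copies. The 5 longest genes without a narrow peak were Ptprd (2271 kb), Csmd1 (1643 kb), Nrxn3 (1612 kb), Robo2 (1555 kb) and Rbfox1 (1528 kb), genes known from neurons. Wide peaks had their midpoints in 3 of them, 5 in Ptprd, 5 in Csmd1 and 3 in Robo2.

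**Figure D3:**
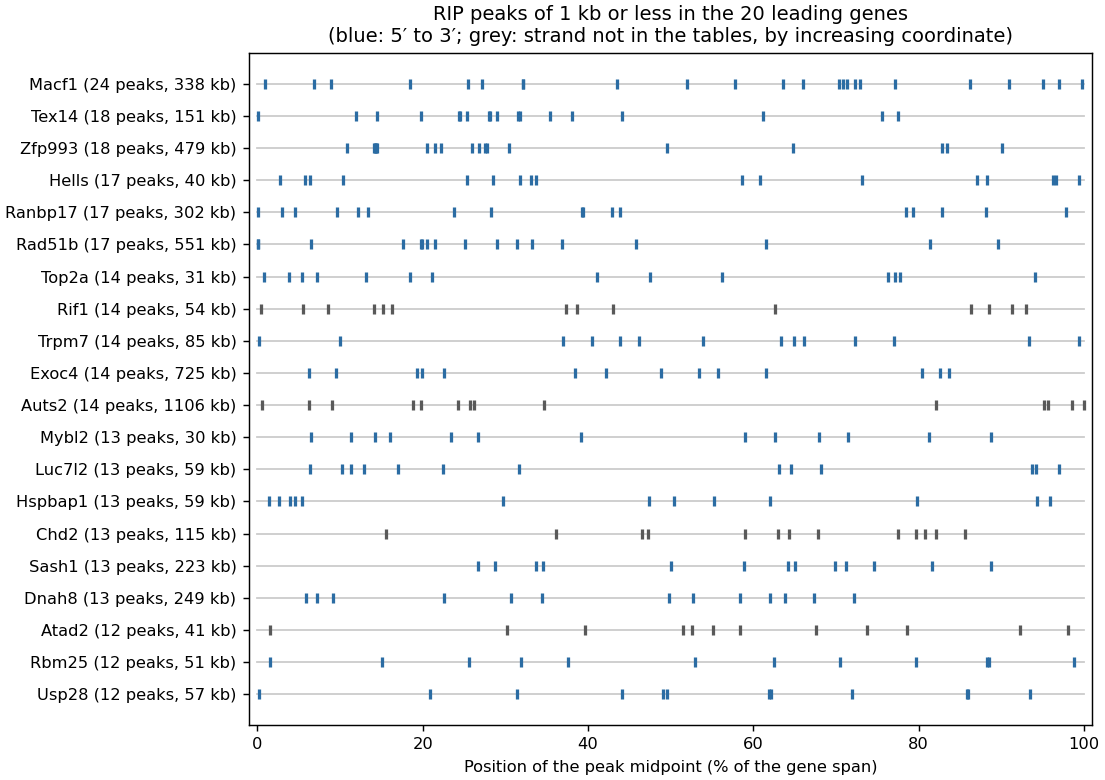
Positions of the YTHDC1 RIP peaks of 1 kb or less along the 20 genes with the most peaks, as percent of the gene span (x), 1 gene per line with its number of peaks and span. Peaks are spread along most spans, as for Macf1, and crowd in the 5′ part of Tex14 and Zfp993.

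By density the leaders were short genes, and their ranks depended on the counting. None of the densest 10 remained there with peaks under 1 kb apart merged, and 2 remained with at least 5 peaks required. Among genes with at least 3 peaks the densest with an established name was Ier5l, an immediate early response gene, with 4 peaks in 1.57 kb (2.55 per kb, 53.0% of the span covered). Snhg10, host of a small RNA that guides modification of spliceosomal RNA, followed with 4 peaks in 1.66 kb (2.41 per kb), then Hypk with 3 in 1.35 kb (2.22 per kb) and the snoRNA host Snhg7 with 6 in 3.07 kb (1.96 per kb). Utp3, which acts in ribosome assembly, Epop, a Polycomb partner, Snhg12 and the tubulin cofactor Tbcc were also among the first 10. A lncRNA gene with a provisional name ranked ahead of them, with 6 peaks in 2.03 kb (2.96 per kb). Some peaks of Snhg10, Snhg7 and Snhg12 overlapped small RNA models inside these hosts. Of longer genes, Npm1, which encodes nucleophosmin, had 10 peaks over 11.6 kb that covered 21.6% of its span. The median over genes with 3 or more peaks was 0.104 per kb.

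Nuclear lncRNAs were found at both ends of the range. Pvt1, the neighbour of Myc, had 9 peaks in 222 kb, Lncenc1, an ES cell lncRNA, 8 in 62.7 kb, and the imprinted snoRNA hosts Rian and Snhg14 had 6 each in 57.8 and 1177 kb. Malat1, the abundant speckle RNA, had 5 peaks in 6.98 kb that covered 23.7% of it (chromosome 19, 5795690 to 5802672). Neat1, the scaffold of paraspeckles, had 5 in 20.8 kb that covered 5.51%. Platr4, a lncRNA linked to pluripotency, had 5 in 5.52 kb. Of 25 nuclear and imprinted lncRNAs 18 had a peak (72.0%, 50.6 to 87.9%), against 5.11% of all lncRNA genes, and the list was chosen with earlier results known. Airn, Kcnq1ot1 and Rmst, with spans of 83.4 to 119 kb, were the longest of those with none. The span of Xist, the RNA that coats an inactive X chromosome, held 2 peaks, and both also lay in Tsix, its antisense partner, which held 6. Without strand the 2 cannot be divided between them. Tsix was named after its value was seen.

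Along coding genes the peaks leaned to both ends. Strand was known for 79.9% of the coding genes, with 16647 peaks. With the span cut into 10 equal bins from the 5′ end, the first held 20.02% (19.4 to 20.6%) of them, the last 14.2% (13.6 to 14.7%) and each of those between 7.45 to 9.18%. The share in the first bin was 19.1% in genes under 10 kb, 20.5% at 10 to 30 kb, 20.3% at 30 to 100 kb and 19.4% at 100 kb or more, with overlapping intervals. Close to the ends, 4.87% of the peaks had their midpoint within 200 bp of the 5′ end and 1.28% within 200 bp of the 3′ end. Within 1 kb the shares were 15.2% and 8.26%. In lncRNA genes, with 709 stranded peaks, the first bin held 18.1% (15.3 to 21.1%) and the last 9.87% (7.78 to 12.3%). The gene table has no exons, so peaks were not divided into exons, introns and untranslated regions.

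**Figure D4:**
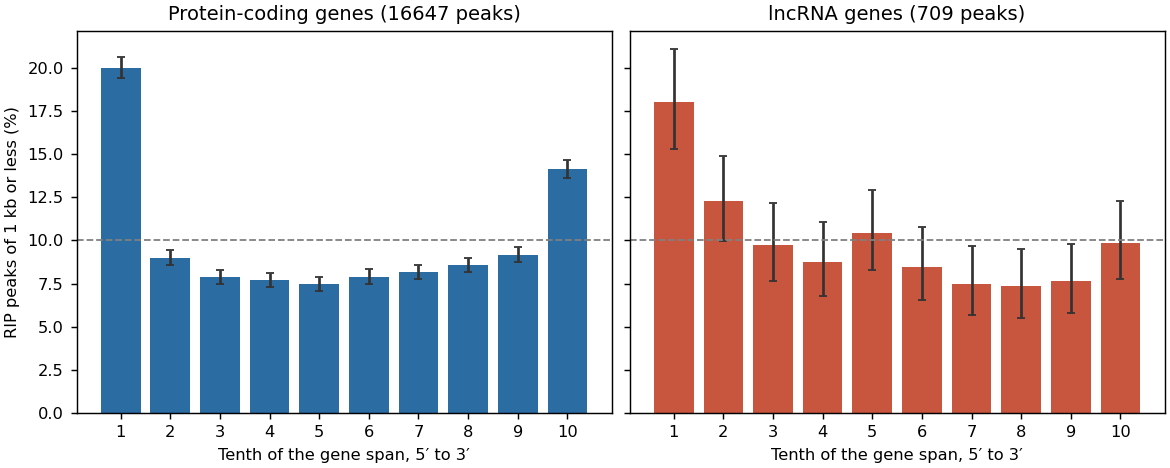
Share of YTHDC1 RIP peaks of 1 kb or less in percent (y, bars with exact 95% binomial intervals) in 10 equal bins of the gene span from 5′ to 3′ (x), for protein-coding genes (16647 peaks) and lncRNA genes (709 peaks). The dashed line marks an even spread, and the first bin stands highest in both panels at 20.02% and 18.1%.

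Genes for the m6A machinery carried peaks themselves. Of 8 writer genes 6 had a peak (75%, 34.9 to 96.8%). The share was 39.7% over all coding genes and 45.0% over those of 10 to 30 kb, the class of the writers' median span. The writers' interval holds both shares. Rbm15 and Wtap had 6 each, Mettl14 3, Cbll1 2, and Virma and Zc3h13 1 each. Mettl3, the catalytic subunit, and Rbm15b had none. Of 12 readers and erasers 11 had a peak (91.7%, 61.5 to 99.8%), against 54.9% of coding genes of 30 to 100 kb, the class of their median span. Ythdc1 itself had 5 peaks in 32.7 kb (chromosome 5, 86803980 to 86836659), 1 of them in the first and 1 in the last of 10 bins. Hnrnpc had 6, the demethylase gene Alkbh5 5 and Igf2bp2 4, whereas Ythdc2, a helicase reader of the germ line, had none.

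Genes of the nuclear steps in which YTHDC1 is known to act had a peak in most cases. The shares beside them are 39.7% of all coding genes, 45.0% of those of 10 to 30 kb and 54.9% of those of 30 to 100 kb, the classes of these lists' median spans. SR and speckle splicing factors counted 24 of 26 (92.3%, 74.9 to 99.1%) with a median of 4 peaks, led after Luc7l2 and Rbm25 by Rbm39 with 11, Luc7l with 9 and Srsf3 with 8 in 10.7 kb. Srsf6 and Srsf12 had none. The hnRNP genes, whose proteins package nuclear RNA, counted 21 of 22, with Hnrnpa3 at 9 in 10.3 kb, Syncrip at 8 and Hnrnpdl at 7 in 6.36 kb, where peaks covered 26.02% of the span. The single-exon gene Pcbp1 had none. Paraspeckle and nuclear matrix proteins counted 12 of 13, with 7 in Sltm and 5 each in Sfpq, Matr3 and Khdrbs1. Export factors counted 23 of 24, with 8 in the nucleoporin gene Nup98 and 6 each in Ncbp1, a cap-binding protein, and Tpr. Polyadenylation factors counted 18 of 20, with 9 in Fip1l1, 6 in Cpsf6 and 5 each in Cstf3, Nudt21 and Papola. Cstf2 and Cpsf4 had none. Nuclear RNA decay factors counted 24 of 25, with 10 in Rbm26, 7 in the exosome helicase Mtrex and 5 in the exonuclease Xrn2.

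Several lists of other nuclear and cell division functions had shares in the same range. Their median spans fall in the class of 30 to 100 kb, where 54.9% of coding genes had a peak. The ubiquitin list falls in that of 100 to 300 kb, with 56.0%. Genome maintenance genes counted 29 of 30 (96.7%, 82.8 to 99.9%), with 8 in Xrcc5 and 7 each in Blm, Fanci and Smc5. Ubiquitin ligases and proteases counted 17 of 17 (80.5 to 100%), with 8 in Usp7. Centrosome and mitosis genes counted 22 of 25, with 9 each in Cdk5rap2 and Kif20b after Macf1. Chromatin regulators counted 38 of 40. After Chd2 with 13 came the methyltransferase gene Nsd1 with 12, Chd9 and the Polycomb partner Jarid2 with 11 and Kat6b with 10. Retrotransposon silencing genes counted 29 of 31, led by Hells with 17 and Rif1 with 14. Atrx and the HUSH subunit Tasor had 9 each, Setdb1 3 and Trim28 2. Dnmt3a and Pphln1 had none. The intervals of these lists overlapped those of the RNA factor lists.

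The next lists differed widely in span, and those of short genes, ribosomal proteins and snoRNA hosts, had high densities. Ribosomal protein genes counted 55 of 84 (65.5%, 54.3 to 75.5%) with 36.7 peaks per 100 kb and a median span of 3.18 kb. Over all coding genes the values were 39.7% and 1.96 peaks per 100 kb. Coding genes of 1 to 3 kb had a share of 14.9% and 10.98 peaks per 100 kb, those of 3 to 10 kb 28.9% and 8.06. Rpl7l1 had 7 peaks, Rpl5 had 5, and Rpl7 and Rpl23 had 4 each. Glycolytic and housekeeping genes counted 20 of 26, against 45.0% of coding genes of 10 to 30 kb, the class of their median span. Gpi1 and Pfkp had 8 peaks and Eno1 and Pkm 6, while Actb, Hk2 and Pgk1 were among those with none. Host genes of snoRNAs, the guides of RNA modification in the nucleolus, counted 16 of 18 at 74.99 peaks per 100 kb. LncRNA genes of 1 to 3 kb, the class of this list's median span, had a share of 3.30% and 2.35 peaks per 100 kb. Among the hosts Snhg7 had 6 peaks, Snhg15 had 5, and Snhg1, Snhg12 and Zfas1 had 4 each. In each of these named hosts at least 1 peak overlapped a snoRNA model inside the gene. Over the host list 7 of 43 peaks had the midpoint in another model as well. The counts and the density thus cannot be given to the host RNA alone. Genes named Zfp counted 227 of 399 (56.9%, 51.9 to 61.8%), against 45.0% of coding genes of 10 to 30 kb, the class of their median span. Of their 463 peaks 66 had the midpoint in another model as well, against 1488 of 21488 over all genes. Very long neuronal genes counted 20 of 30 at 0.189 peaks per 100 kb, with 14 in Auts2 and 11 in Wwox. Coding genes of 300 kb or more had a share of 54.9% and 0.307 peaks per 100 kb. Of 22 such gene lists 21 lay above the 39.7% of coding genes, and the exception was the list of 2-cell-like genes. The count was the same against the 27.0% of all genes, a share that includes the lncRNA genes. The lists were chosen with earlier results of these data known.

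Replication-dependent histone genes divided by class, a division made after the values were seen. A peak was found in 15 of 17 H2A genes, 11 of 16 H2B genes, 5 of 6 H1 genes, 6 of 12 H4 genes and 0 of 12 H3 genes (upper limit 26.5%). Counting any overlap in place of the midpoint gave the same numbers. In all, 37 of 63 had a peak (58.7%, 45.6 to 71.0%). The share was 39.7% over all coding genes and 3.30% over those below 1 kb, the class of the histone genes' median span (0.492 kb). The peak in H4c18 covered 82.0% of the gene and that in H4c17 73.3%. Copies within a class are nearly identical, so how reads were shared among them can decide which copy holds a peak.

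The cell type label was set against genes of cell identity. Pluripotency genes counted 23 of 29 (79.3%, 60.3 to 92.0%). The share was 39.7% over all coding genes and 28.9% over those of 3 to 10 kb, the class of this list's median span (9.24 kb). Lifr and Il6st, the LIF receptor subunits, had 7 and 5 peaks, the NODAL co-receptor Tdgf1 5, and Dppa4 and Zfp42 4 each. Of the core factors Pou5f1, which encodes OCT4, had 2, Nanog 1, Myc 1 and Sox2 3. The 3 peaks of Sox2 all lay also in another gene model over the same stretch and without strand cannot be given to Sox2 alone. Klf4, Klf5, Prdm14 and Dppa2 were among the 6 with none. The genes of the 2-cell-like state, a rare embryo-like state of ES cells, had a peak in 0 of 17, which allows a share of up to 19.5%. These genes are short (median span 4.31 kb, also in the class with 28.9%) and many have near-identical copies. Markers of other lineages are read against 39.7% of all coding genes and 28.9% of those of 3 to 10 kb. For endoderm and fibroblast markers, whose median spans are longer, the class is 10 to 30 kb, with 45.0%. Mesoderm counted 0 of 15 (up to 21.8%), endoderm 2 of 15, fibroblasts 2 of 14, trophoblast 4 of 14 and neuroectoderm 5 of 16, with no gene above 4 peaks. The intervals for trophoblast (8.39 to 58.1%) and neuroectoderm (11.02 to 58.7%) hold 28.9% and 39.7%. Those for endoderm (1.66 to 40.5%) and fibroblasts (1.78 to 42.8%) hold 39.7% and lie below 45.0%. The gene with 4 peaks was Fn1, and Krt8 and Otx2 had 2 each.

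**Figure D5:**
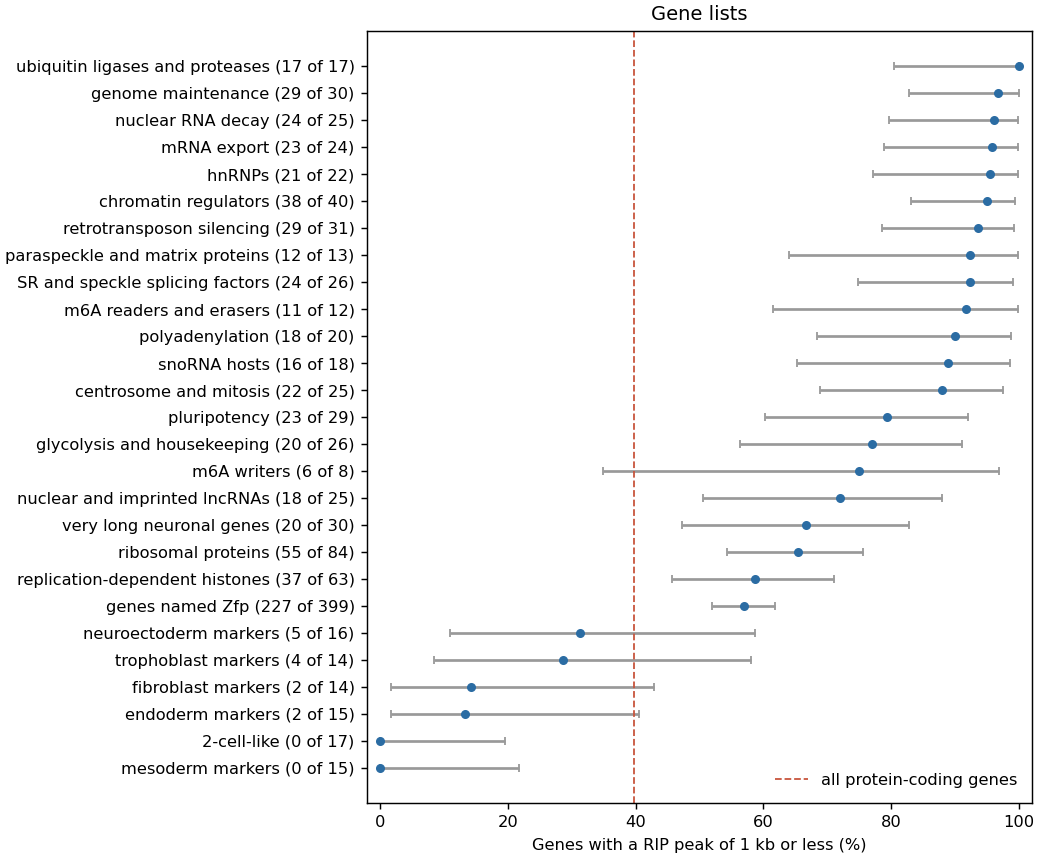
Share of genes with a YTHDC1 RIP peak of 1 kb or less in percent (x, points with exact 95% binomial intervals) for 27 gene lists (y), each with its count. The dashed line marks all protein-coding genes at 39.7%, the mesoderm and 2-cell-like lists stand at 0, and 9 lists lie at 92% or more.

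Several small nuclear RNAs were covered nearly end to end, a group named after the values were seen. Narrow peaks had a median width of 200 bp, so a peak centred on an RNA shorter than that can cover all of it. All 4 named U1 genes and all 5 named U3 genes were overlapped, by peaks of 202 to 334 bp, and 3 of the 4 Rnu3b genes carried at least 98.6% cover. U1 and U2 act in the recognition of introns, and U3 acts in ribosomal RNA processing. The minor spliceosome genes Rnu11 and Rnu12 and the U2 gene Rnu2-10 lay wholly within peaks of 248 to 273 bp. Rn7sk, the RNA that holds an elongation factor inactive, was covered over 73.5% of its 332 bases, and the telomerase RNA gene Terc over 66.2% of 397. Named U5, U6 and U7 genes (1, 3 and 4) and both 7SL genes had no peak. Over all annotated models, most of them unnamed copies, 41 of 1004 snRNA models (4.08%) and 59 of 1340 snoRNA models (4.40%) were overlapped, and 9 of 41 guide RNA models (22.0%). Among named genes the count was 14 of 39 for H/ACA snoRNAs, 15 of 94 for C/D snoRNAs and 4 of 9 for the scaRNAs of Cajal bodies, such as Scarna13 inside Snhg10. These families have many copies, and the share of reads that map to more than 1 copy is not given in the sources used here.

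Chromosomes differed in narrow peaks much as they differ in coding genes. Autosomes ranged from 7.50 narrow peaks per Mb on chromosome 3 to 16.9 per Mb on chromosome 11, with a median of 9.72. Over 19 autosomes the rank correlation with coding genes per Mb was 0.847, given as a description. On chromosome 11 the leading genes were Tex14 and Ranbp17, Top2a, Tns3 with 12 and Npm1 with 10. On chromosome 3 they were Ect2, a regulator of cytokinesis, the DNA-binding factor gene Fubp1 and the lysosomal mannosidase gene Manba with 10 each, and Gon4l and the mitochondrial pyrophosphatase gene Ppa2 with 9. The X chromosome lay below every autosome, at 4.53 per Mb, and so did the share of its coding genes with a peak, 25.4% (22.6 to 28.2%) against 29.9 to 51.0% on autosomes. It held 5.66 coding genes per Mb, near the lower end of the autosomal range of 5.63 to 13.97. Coding spans made up 27.0% of its length, below every autosome (32.9 to 46.5%). Male cells carry a single X, and neither its part nor that of gene content in the lower count was tested. X-linked genes could still hold many peaks, such as Alg13, Ogt, the enzyme that adds N-acetylglucosamine to nuclear proteins, and the polymerase gene Pola1 with 11 each, and Atrx with 9. The share of wide peaks ran the other way, from 7.09 to 23.3% on autosomes to 38.4% on X and 88.7% on Y. Per Mb, wide peaks numbered 1.08 to 2.28 on autosomes, 2.82 on X and 1.48 on Y. The density on Y thus lay within the autosomal range, and its high share goes with its few narrow peaks. The Y chromosome held 17 narrow peaks, 0.187 per Mb, and none in its 256 coding genes.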

How the data were processed

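The deposited list gives positions only (other: chromosome, start and end of each peak, in bp), from the authors' peak calling. MACS2 2.1.2, SAMtools 1.9, HISAT2 2.2.0, STAR 2.7, Trim Galore 0.6.4, bcl2fastq and mm10 are named in the submitters' processing notes. Their order, the peak threshold and any use of the input were not given in the sources used here. Depth is unknown.

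Peaks went to the RefSeq span (GRCm38.p6, 34610 protein-coding and lncRNA genes without mitochondrial ones) holding the midpoint, coding before lncRNA, then the shortest. Strand came from the RefSeq start-site and microRNA tables. Small RNA, hairpin and start-window overlaps needed at least 1 bp. Chromosome lengths end at the last gene. Computation used Python 3.11.15, pandas 2.3.3 and scipy 1.17.1, checked on simulated peaks.

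Members and gene lists were chosen with earlier results of these data known. Named genes were the 20 with most peaks, 10 lncRNA genes with most, the 10 densest with at least 3 peaks (overall and lncRNA), 5 leading genes of the densest and sparsest autosomes, X and Y, the 5 longest without a peak, up to 5 genes with and 3 without a peak per list, and 10 fixed genes (Ythdc1, Mettl3, Pou5f1, Sox2, Nanog, Klf4, Myc, Malat1, Neat1, Xist), with members at lower ranks added to show a list. Provisional names are not printed. Of the genes that met the rule, some are not reported here.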

Additional observations from a re-analysis of the deposited data

How the results depend on the processing

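Of 116 alternatives run, 92 left their result unchanged by the rule used, 23 moved it and 1 reversed it. The share of peaks in genes was 82.9% with a 500 bp limit, 81.1% with 2 kb, 73.9% with none, 83.5% for peaks above the median width, 85.0% with all gene models, 78.9% with coding models and 77.8% with midpoints in exactly 1 span. The lncRNA share of genic peaks was 5.16% with no width limit, 3.64% above the median width, 3.95% with all models, 6.71% with the shortest span first and 7.36% with every gene overlapped. The coding over lncRNA density ratio was 3.02 with the shortest span first, 2.73 with every gene overlapped and, reversed, 0.944 over genes with a peak, a set chosen by its peaks. Above the median width 5744 genes had a peak, and 2 of the leading 20 and 5 of the densest 10 genes remained. Of the densest 10, 6 remained with all or coding models, 2 with at least 5 peaks and 0 with peaks under 1 kb apart merged. The rank correlation with span was 0.0968 in lncRNA genes, and the first of 5 bins held 29.0% of coding peaks, a wider bin by construction. Otherwise the cause was not tested. No paired analysis was possible because there is 1 RIP and 1 input sample. Without counts, scores or replicates, neither depth nor enrichment could be weighed, and leaving out a replicate was not possible.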
